A study of Homo sapiens with 7 samples.

Results

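The 10 genes described here belong to the protein-folding system of the endoplasmic reticulum (ER) and were taken by their symbols from a table of gene counts. They are HSPA5, HSP90B1, PDIA4, CALR, CANX and HYOU1, which encode chaperones and folding enzymes, XBP1, a transcription factor, DNAJB9, a co-chaperone, and HERPUD1 and SEL1L, which act in the disposal of misfolded ER proteins. All 10 were found among the 32738 genes of the table, and all 10 were among the 10212 genes abundant enough to be tested. RNA came from HUDEP-2 cells, an immortalised human line of erythroid progenitors from umbilical cord blood. There were 2 libraries with guide 1 and 2 with guide 2, both aimed at an enhancer of TMCC2, and 3 with a non-targeting guide. Every group, the non-targeting one included, received lentivirus for CRISPR interference: a guide RNA leads an inactive Cas9 that carries a repressor to DNA, and transcription nearby is lowered. All had been grown with stem cell factor, erythropoietin, dexamethasone and doxycycline, and after infection were held for 72 h in a differentiation medium with 3 IU/ml erythropoietin. A single cell line was used. Whether the replicates of a group came from different cultures is not stated, so a p-value here reflects only how far these libraries scatter, which can be technical.

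Proteins that enter the secretory pathway fold in the lumen of the ER with the help of chaperones that bind exposed hydrophobic stretches or sugar chains. When unfolded proteins build up there, the membrane sensors IRE1, PERK and ATF6 start the unfolded protein response: IRE1 splices XBP1 mRNA into a form that encodes an active factor, ATF6 is cut to release one, and PERK slows translation and raises ATF4. The targets include the chaperone genes themselves and the genes of ER-associated degradation. Red cell precursors make haemoglobin in the cytosol, and their ER is lost before the red cell is mature. The counts are per gene, so spliced and unspliced XBP1 mRNA cannot be told apart here.

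The response is known to act through short promoter elements, which are shown as a description of these genes. The genes were chosen as members of this system, so finding the elements before them is not an independent result. The ER stress response element (ERSE) was searched as CCAAT and CCACG with any 9 bases between them, and its second form (ERSE-II) as ATTGG and CCACG with any 1 base between them, on both strands of the 250 bases before each annotated start, in RefSeq promoters of GRCh38.p14. All 10 genes were matched there by symbol. An exact ERSE stood before at least 1 start of HSPA5, HSP90B1, CALR, CANX and XBP1, against 0.0916% of 27305 genes. An exact ERSE-II stood before HYOU1 and HERPUD1, against 0.0659% of genes. The core TGACGTGG, bound by XBP1, was found before HYOU1, where it overlaps an ERSE-II, and before 0.78% of genes. PDIA4, DNAJB9 and SEL1L held no exact match, which says only that these letters are not in these windows. The upstream windows of HSPA5 and HERPUD1, whose levels with the guides did not overlap the controls, are given whole, and the other sites with 12 bases on each side. Each reads from 5′ to 3′ on the strand of its gene, with the motif in capitals.
HSPA5, ERSE, chr9:125241344-125241593, minus strand: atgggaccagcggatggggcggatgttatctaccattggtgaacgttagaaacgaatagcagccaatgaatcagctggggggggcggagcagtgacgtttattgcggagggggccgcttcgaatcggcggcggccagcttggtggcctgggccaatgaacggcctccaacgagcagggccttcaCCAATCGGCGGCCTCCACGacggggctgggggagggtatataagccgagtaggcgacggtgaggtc
HERPUD1, ERSE-II, chr16:56931892-56932141, plus strand: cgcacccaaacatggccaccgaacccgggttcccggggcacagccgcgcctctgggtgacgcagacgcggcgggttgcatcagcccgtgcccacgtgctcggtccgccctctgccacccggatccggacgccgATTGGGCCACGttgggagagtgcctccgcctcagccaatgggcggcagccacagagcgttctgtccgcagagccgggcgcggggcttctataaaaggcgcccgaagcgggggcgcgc
HSP90B1, distal ERSE, chr12:103930204-103930246, plus strand: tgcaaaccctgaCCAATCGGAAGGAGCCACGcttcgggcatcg
HSP90B1, proximal ERSE, reversed, chr12:103930309-103930351, plus strand: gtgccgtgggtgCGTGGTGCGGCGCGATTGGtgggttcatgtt
CALR, ERSE, reversed, chr19:12938372-12938414, plus strand: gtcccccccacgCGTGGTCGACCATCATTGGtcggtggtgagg
CANX, ERSE, chr5:179698766-179698808, plus strand: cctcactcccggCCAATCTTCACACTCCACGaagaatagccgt
XBP1, ERSE, chr22:28800591-28800633, minus strand: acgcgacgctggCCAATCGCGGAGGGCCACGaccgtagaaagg
HYOU1, distal ERSE-II, reversed, chr11:119057368-119057402, minus strand: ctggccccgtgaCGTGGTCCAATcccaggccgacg
HYOU1, proximal ERSE-II, reversed, chr11:119057262-119057296, minus strand: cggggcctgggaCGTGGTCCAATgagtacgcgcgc

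The libraries held 9780800 to 11350113 counts and had the profile of haemoglobin-making cells, with 23.0% to 26.9% of counts from globin genes. Levels are given below as CPM, counts relative to the library size scaled by TMM, a method that lines up the bulk of genes between libraries. In bulk RNA, fewer cells of a type and less RNA per cell cannot be told apart. TMCC2, the target, averaged 224 ± 7.38 CPM with guide 1, 245 ± 21.9 CPM with guide 2 (SD, n = 2 each) and 869.5 ± 58.6 CPM without a targeting guide (SD, n = 3). Markers of B and plasma cells, which are rich in ER, summed to 1.63 to 2.21 CPM with guide 1, 1.26 to 2.10 CPM with guide 2 and 1.504 to 2.66 CPM in the non-targeting group, without TMM scaling. Of these 12 markers 6 had 0 counts in each of the 7 libraries, among them MS4A1 and MZB1. T and NK cell markers summed to at most 0.409 CPM, fibroblast markers to at most 0.368 CPM, neutrophil and monocyte markers to at most 2.91 CPM, and mast cell markers to at most 11.9 CPM. Megakaryocyte markers summed to 205 to 214 CPM with guide 1, 183 to 198 CPM with guide 2 and 177 to 208 CPM in the non-targeting group. Among all 7, non-targeting replicate 1 lay farthest out: its mean distance to them was 0.472 on the log2 scale, against 0.374 to 0.397 for the other 6. Its deviation from the mean of all libraries had a Spearman rho of -0.70 with the GC content of transcripts. This rho was between -0.32 and 0.43 in the other 6 libraries. Differences are given also without this library where leaving it out changed a sign or a call or moved the value by more than 1.5 times.

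The question of levels was taken first, since it shows how the mRNA signal of these genes ranks. These are levels of mRNA, not of protein, and were not corrected for GC content. Per kb of the principal transcript, averaged over 7 libraries, CALR was highest at 511 CPM per kb, followed by HSPA5 at 262 CPM per kb. CALR, or calreticulin, binds calcium and the sugar chains of new glycoproteins. HSPA5, or BiP, is an ER member of the heat shock protein family to which cytosolic HSP70 belongs. CANX, or calnexin, the membrane-bound relative of calreticulin, stood at 55.3 CPM per kb. HERPUD1 stood at 52.2 and DNAJB9 at 41.6 CPM per kb, and the ranges of CANX, HERPUD1 and DNAJB9 over libraries overlapped. HSP90B1, the ER form of HSP90, was lower at 29.3 CPM per kb, with a range of 26.0 to 32.3 CPM per kb that lay below the lowest DNAJB9 library at 34.4. HYOU1, which helps HSPA5 to exchange nucleotide, followed at 12.1 CPM per kb and SEL1L at 9.47 CPM per kb, with overlapping ranges. XBP1 at 6.83 and PDIA4 at 4.79 CPM per kb were lowest, and their ranges did not overlap each other or that of SEL1L. Among 9424 tested genes with a known length, CALR ranked at 140 and HSPA5 at 239, while PDIA4 ranked at 4721.

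**Figure D1:**
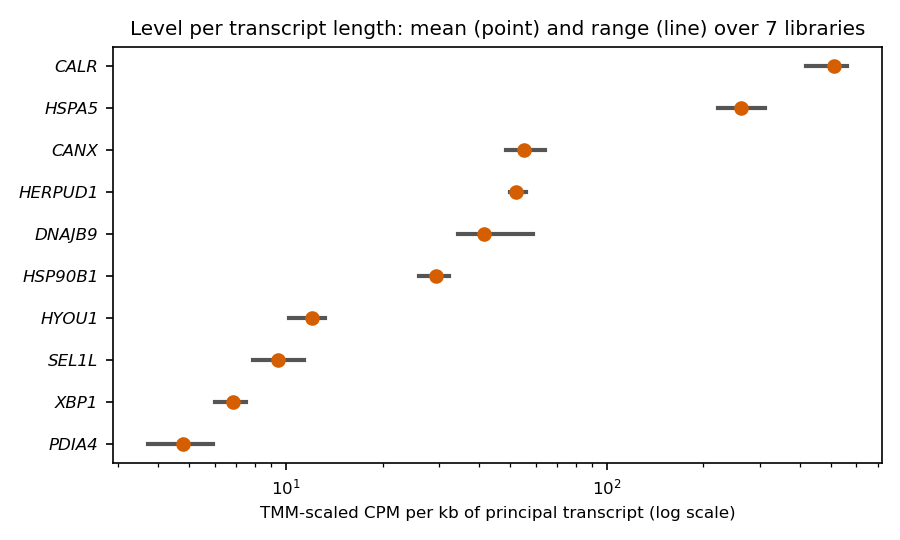
Level of each of the 10 genes in TMM-scaled CPM per kb of principal transcript (horizontal log axis); points are means and lines span the lowest to the highest of 7 libraries. CALR at 511 and HSPA5 at 262 CPM per kb stand apart from the other 8 genes, which lie at 55.3 CPM per kb or less.

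The comparison of both guides with the non-targeting group asked whether lowering TMCC2 was accompanied by a change in the folding system. HSPA5 had the largest difference of the 10, 1.20-fold higher with the guides, and did not pass adjustment over all genes. None of the 10 passed an adjusted p under 0.05, a rule met by 0.0196% of all tested genes, and 1 of 10, HSPA5, had an unadjusted p under 0.05, against 4.19% of all tested genes, of which 1.79% were higher and 2.4% lower. HSPA5 and HERPUD1 were higher in each guide library than in any control library, against 3.03% of tested genes, and no member was lower in this way, against 2.37%. Of the 10 genes, 6 had a log2 fold change above 0, against 46.1% of tested genes, and the median was 0.05, against -0.01 over all tested genes. Without non-targeting replicate 1, SEL1L joined HSPA5 and HERPUD1 above all controls, against 8.76% of tested genes, and no member was below, against 8.35%. Of the 10 genes, 8 then had a log2 fold change above 0, against 50.2% of tested genes. The 95% intervals of the 10 genes together ran from -0.51 to 0.45 on the log2 scale.

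**Figure D2:**
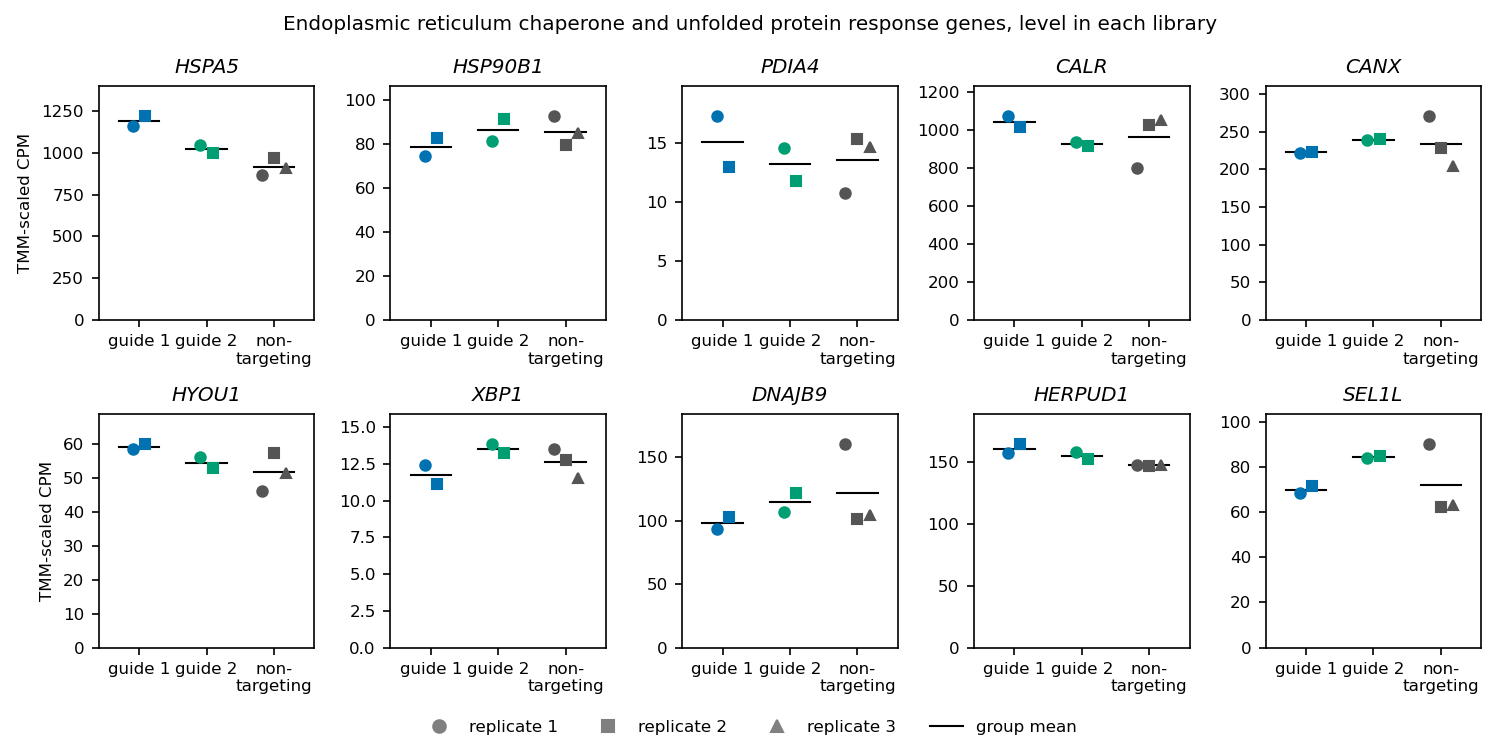
TMM-scaled CPM of the 10 genes in each library (vertical axes start at 0), with guide 1, guide 2 and non-targeting libraries from left to right; points are libraries, symbols give the replicate number and bars are group means. HSPA5 lies at 1161 and 1218 CPM with guide 1 and at 870.1 to 970.2 CPM in the non-targeting group. Non-targeting replicate 1 is the highest control for DNAJB9, SEL1L, CANX, HSP90B1, XBP1 and HERPUD1. It is the lowest control for CALR, PDIA4, HYOU1 and HSPA5.

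Among the chaperones of the lumen, HSPA5 stood at 1161 and 1218 CPM with guide 1 and at 1046 and 997 CPM with guide 2, against 870.1, 970.2 and 908 CPM in the non-targeting libraries. All 4 guide libraries were above all 3 controls, and guide 1 was above guide 2. The log2 fold change with both guides was 0.27 (SE 0.08, 95% interval 0.09 to 0.45, unadjusted p = 0.00698). Adjusted by Benjamini and Hochberg's method over all tested genes, the p of this quasi-likelihood test in edgeR was 0.998. Without non-targeting replicate 1 it was 0.23 and was called (adjusted p = 0.037, edgeR, in a range of 0.037 to 1.00 over the alternatives), where 0.524% of tested genes were called. HSPA5 counts ran from 8433 to 13044 per library, so counting error is small beside the spread between libraries.

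HSP90B1, which folds a narrow set of client proteins such as integrins, had 74.3 and 82.7 CPM with guide 1 and 81.4 and 91.1 CPM with guide 2, against 92.3, 79.3 and 84.9 CPM without a targeting guide. The groups overlapped, and the log2 fold change was -0.06 (95% interval -0.28 to 0.17), turning to 0.01 without non-targeting replicate 1. HYOU1 had 58.4 and 59.9 CPM with guide 1 and 56.1 and 52.8 CPM with guide 2, against 46.2, 57.2 and 51.5 CPM in the controls. Guide 1 lay above all controls and guide 2 overlapped them, with 0.14 for both guides (95% interval -0.10 to 0.37). The HYOU1 value was 0.06 without non-targeting replicate 1 and 0.22 without replicate 2. PDIA4, a disulfide isomerase, had 17.2 and 13.0 CPM with guide 1 and 14.6 and 11.8 CPM with guide 2, against 10.8, 15.3 and 14.7 CPM in the controls. These values mixed freely, with counts of 122 to 175 per library and the widest interval of the chaperones, -0.30 to 0.42 around 0.06. The PDIA4 value turned to -0.09 without non-targeting replicate 1, to -0.05 without guide 1 replicate 1 and to -0.02 without guide 2 replicate 1.

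The lectin pair CALR and CANX holds glycoproteins in the ER until they fold. CALR had 1070 and 1015 CPM with guide 1 and 935 and 914 CPM with guide 2, against 798, 1026 and 1053 CPM in the non-targeting libraries. The lowest value was non-targeting replicate 1, and the guides lay between it and the other controls or just above them. The CALR difference was 0.03 (95% interval -0.19 to 0.25), and -0.08 without that library. CANX had 222 and 224 CPM with guide 1 and 239 and 240.1 CPM with guide 2, against 270.5, 228 and 204 CPM in the controls. Here the same library was the highest, and the guides fell inside the range of the controls. The CANX difference was -0.02 (95% interval -0.24 to 0.20), and 0.09 without that library.

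XBP1 is both a factor of the response and one of its targets. It had 12.4 and 11.1 CPM with guide 1 and 13.8 and 13.2 CPM with guide 2, against 13.5, 12.8 and 11.5 CPM in the controls. The groups overlapped, with a difference of -0.002 between both guides and non-targeting (95% interval -0.30 to 0.30) from 107 to 153 counts per library. Without non-targeting replicate 1 the XBP1 difference was 0.05. DNAJB9, also called ERdj4, is a co-chaperone of HSPA5 that is known to hold IRE1 inactive. DNAJB9 had 93.4 and 103 CPM with guide 1 and 107 and 122 CPM with guide 2, against 160.0, 100.9 and 104 CPM in the controls. Non-targeting replicate 1 was the highest of all 7, and the other 2 controls lay among the guide libraries. The difference was -0.20 (95% interval -0.51 to 0.11), and 0.05 without that library.

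Of the degradation genes, HERPUD1 encodes a membrane protein that helps to assemble the complex which moves misfolded proteins out of the ER. It had 157 and 165 CPM with guide 1 and 158 and 153 CPM with guide 2, against 148.2, 147.1 and 147.6 CPM in the controls. All 4 guide libraries were above all 3 controls, whose values differed by less than 2 CPM. The difference was 0.10 (SE 0.09, 95% interval -0.09 to 0.29, unadjusted p = 0.277 by edgeR) and stayed between 0.08 and 0.12 over the alternatives run. With total counts in place of TMM, guide and control libraries of HERPUD1 overlapped. SEL1L holds the ubiquitin ligase HRD1 in its complex. SEL1L had 68.5 and 71.8 CPM with guide 1 and 84.0 and 85.0 CPM with guide 2, against 90.3, 62.4 and 63.5 CPM in the controls. Guide libraries were above non-targeting replicates 2 and 3 and below replicate 1. The difference was 0.09 (95% interval -0.18 to 0.37), and 0.29 without replicate 1 (adjusted p = 0.0795, edgeR, in a range of 0.0795 to 1.00 over the alternatives).

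**Figure D3:**
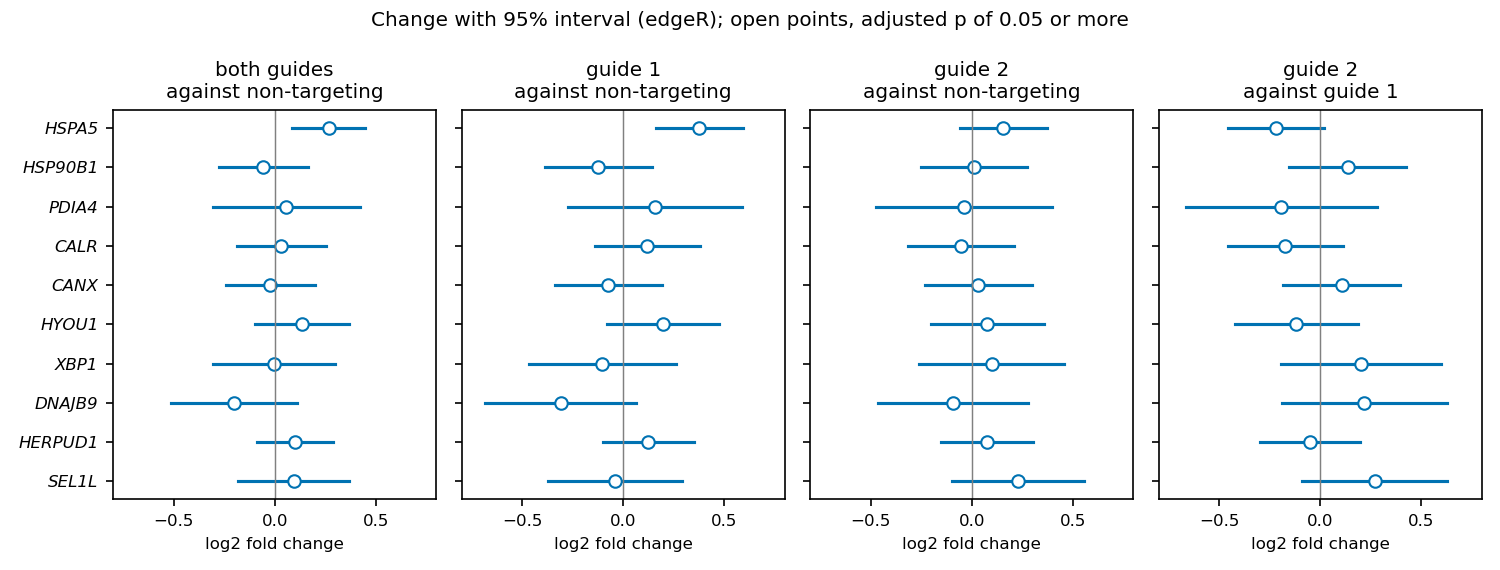
Log2 fold changes (horizontal axes) of the 10 genes with 95% intervals from the edgeR fit, for both guides, guide 1 and guide 2 against non-targeting and for guide 2 against guide 1; open points have an adjusted p of 0.05 or more. All points are open, and the intervals of HSPA5 with both guides (0.09 to 0.45) and with guide 1 (0.16 to 0.59) lie above 0.

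With guide 1 alone, none of the 10 genes was called, against 0.0294% of tested genes, and HSPA5 was the 1 gene with an unadjusted p under 0.05, against 4.78%, of which 1.97% were higher and 2.81% lower. HSPA5 was 1.30-fold higher with guide 1, with a mean of 1189.7 ± 40.6 CPM (SD, n = 2) and of 916 ± 50.5 CPM in the non-targeting group (SD, n = 3). Its log2 fold change was 0.38 (SE 0.10, unadjusted p = 0.00202, adjusted p = 0.877, edgeR). It was called without non-targeting replicate 1, at 0.34 (adjusted p = 0.00339, edgeR), where 0.584% of genes were called. It was also called with a correction for transcript GC content, at 0.40 (adjusted p = 0.0184, edgeR, in a range of 0.00339 to 1.00 over the alternatives), where 0.323% of genes were called. With both the GC correction and a replicate block, HSPA5 stood at 0.41 and was not called (adjusted p = 0.225, edgeR). HSPA5, HYOU1 and HERPUD1 were above all controls with guide 1, against 11.3% of tested genes, and none was below all controls, against 10.3%. Without non-targeting replicate 1, SEL1L was above them too, against 19.4% of tested genes, and again none was below, against 18.7%. Both DNAJB9, at -0.31 (95% interval -0.68 to 0.06), and HYOU1, at 0.20 (95% interval -0.08 to 0.47), were not called. Leaving out non-targeting replicate 1, these values were -0.06 for DNAJB9 and 0.12 for HYOU1. The median of the 10 was 0.04, with 5 genes above 0, against 48.5% of tested genes. Without non-targeting replicate 1 the median was 0.02, with 7 genes above 0, against 49.9% of tested genes.

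With guide 2 alone, none of the 10 was called, against 0.00979% of tested genes, and none had an unadjusted p under 0.05, against 2.75%, of which 1.59% were higher and 1.17% lower. The median was 0.05, with 7 genes above 0, against 44.7% of tested genes. Without non-targeting replicate 1 the median was 0.10, with 8 genes above 0, against 51.2% of tested genes. HSPA5 averaged 1021 ± 34.8 CPM with guide 2 (SD, n = 2) and 916 ± 50.5 CPM in the non-targeting group (SD, n = 3), a log2 difference of 0.16 (95% interval -0.06 to 0.37). HSPA5 and HERPUD1 were again above all controls, against 8.16% of tested genes, and none was below, against 6.86%. SEL1L averaged 84.5 ± 0.762 CPM with guide 2 (SD, n = 2) and 72.0 ± 15.8 CPM in the controls (SD, n = 3), a difference of 0.23 (95% interval -0.10 to 0.56). Without non-targeting replicate 1, SEL1L was called at 0.43 (adjusted p = 0.0107, edgeR, in a range of 0.0107 to 1.00 over the alternatives), where 1.27% of tested genes were called. With the GC correction of all 7 libraries, SEL1L stood at 0.27 and was not called (adjusted p = 0.409, edgeR), where 0.049% of tested genes were called. Without that library, 6 of 10 genes were above both remaining controls, against 22.1% of tested genes, and 2 were below, against 21.5%. The 2 comparisons with guides share their control libraries, so HSPA5 and HERPUD1 lying above the controls with both guides are not independent results.

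The guides were also compared with each other. None of the 10 genes was called, against 0% of tested genes, and none had an unadjusted p under 0.05, against 2.86%, of which 1.59% were higher and 1.27% lower. The median was 0.03, with 5 genes above 0, against 50.3% of tested genes. HSPA5 was lower with guide 2 than with guide 1 by a log2 difference of -0.22 (95% interval -0.46 to 0.02, unadjusted p = 0.0659, edgeR). The guide 2 and guide 1 libraries did not overlap for 7 of the 10 genes. CANX, XBP1, DNAJB9 and SEL1L were higher with guide 2, against 21.9% of tested genes, and HSPA5, CALR and HYOU1 were lower, against 22.2%. With total counts in place of TMM these shares of all tested genes were 31.9% and 13.8%, HSP90B1 joined the higher genes and HYOU1 overlapped. Without non-targeting replicate 1, 0.317% of tested genes were called between the guides, and none of the 10. An unadjusted p under 0.05 (edgeR) was then met by 4 of the 10 genes, against 1316 of 10107 tested genes. These 4 were SEL1L and DNAJB9, higher with guide 2, and HSPA5 and CALR, lower. With all 7 libraries SEL1L differed by 0.27 (95% interval -0.09 to 0.63), DNAJB9 by 0.22 (95% interval -0.19 to 0.62) and CALR by -0.17 (95% interval -0.46 to 0.11). With the GC correction these 3 differences were 0.14, 0.10 and -0.10, while that of HSPA5 was -0.25. The differences between guides went with transcript GC content, with a Spearman rho of -0.66 across the 10 genes and -0.41 across 9424 tested genes. Library deviations from the mean of all libraries had a rho with GC content of 0.42 and 0.29 with guide 1. With guide 2 this rho was 0.09 and -0.32. The cause of the differences between guides was not tested.

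The deviation of non-targeting replicate 1 from the other 6 libraries went with the base composition of the transcripts in these genes. SEL1L, DNAJB9, CANX and HSP90B1 have transcripts of 39.4% to 42.4% GC, and all 4 were higher in non-targeting replicate 1 than in the mean of the other 6 libraries, by 0.33, 0.61, 0.26 and 0.17 on the log2 scale. PDIA4, CALR and HYOU1 have 53.0% to 55.2% GC and differed there by -0.40, -0.33 and -0.27. HERPUD1 with 47.9% GC differed by -0.06. HSPA5 with 46.0% GC differed by -0.26 and XBP1 with 50.1% GC by 0.12. DNAJB9, HSPA5, XBP1, PDIA4 and CALR lay outside the middle 50% of tested genes in their GC bin. Across the 10 genes Pearson's r was -0.85 and Spearman's rho -0.89, and across all 9424 tested genes with a known GC content they were -0.66 and -0.70. The points all come from 1 library set against the same 6, and genes are not independent replicates. Those 6 include the guide libraries. Against non-targeting replicates 2 and 3 alone, HSPA5 differed by -0.11 and XBP1 by 0.15. For both guides against non-targeting, the differences and GC content had Pearson's r of 0.38 and Spearman's rho of 0.39 across the 10 genes. Over the 9424 genes these were 0.25 and 0.31. Non-targeting replicate 1 is among the controls of that comparison. With the GC correction, both guides against non-targeting gave 0.27 for HSPA5, 0.20 for SEL1L, -0.11 for DNAJB9 and 0.01 for CALR, and none was called, against 0.0979% of tested genes.

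**Figure D4:**
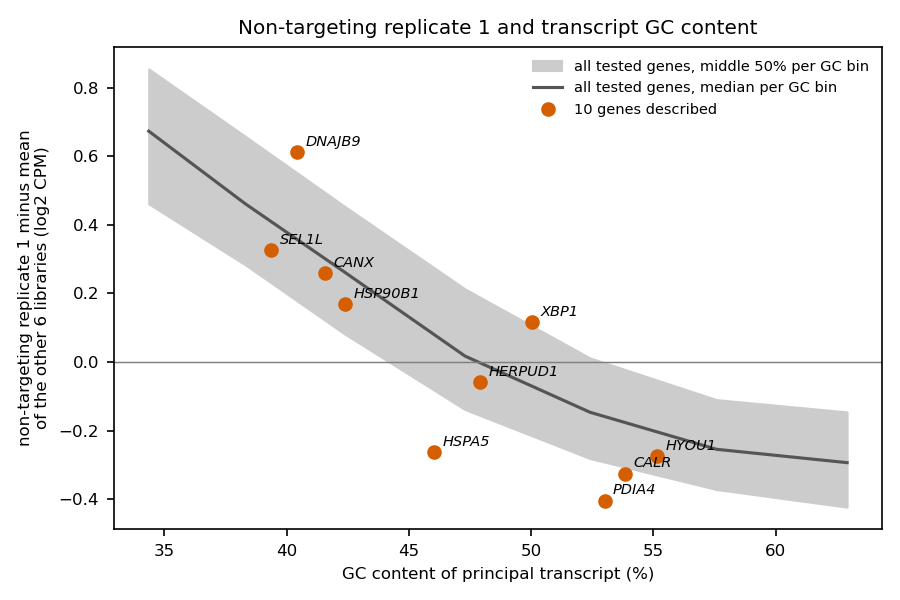
Log2 CPM of non-targeting replicate 1 minus the mean of the other 6 libraries (vertical axis) against GC content of the principal transcript (horizontal axis, %); orange points are the 10 genes, the line is the median and the band the middle 50% of all tested genes per GC bin. DNAJB9 lies highest at 0.61 with 40.4% GC and PDIA4 lowest at -0.40 with 53.0% GC.

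Other genes of the same system were read from lists by role, with the 3 members of smallest unadjusted p and at least 5 CPM named from each. Over all tested genes with both guides, 46.1% were above 0, the median was -0.01 and 4.19% had an unadjusted p under 0.05, 1.79% higher and 2.4% lower. Leaving out non-targeting replicate 1 gave 50.2% above 0, a median of 0.00 and 10.5% with an unadjusted p under 0.05, among them 2 of the 10 genes described first.

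Of 27 other chaperones and folding enzymes 22 were tested, 9 above and 13 below 0, with a median of -0.03 and 0 with an unadjusted p under 0.05. The median was -0.02 without non-targeting replicate 1. ERP44, which retrieves escaped proteins, averaged 86.2 ± 7.27 CPM with a guide (SD, n = 4) and 96.6 ± 11.3 CPM in the non-targeting group (SD, n = 3), at -0.17, and -0.07 without that library. ERP29 averaged 123 ± 11.7 CPM with a guide and 109.5 ± 13.5 CPM in the non-targeting group, at 0.16, and 0.06 without it. DNAJC3, an HSPA5 co-chaperone, differed by -0.23, and by 0.03 without it. All 27 other degradation genes were tested, 11 above and 16 below 0, with a median of -0.02 and 1 higher and 1 lower at an unadjusted p under 0.05. Leaving out the same library, 17 of 26 tested were above 0, with a median of 0.03. UBE2J1, a ubiquitin-conjugating enzyme of the ER membrane, averaged 6.56 ± 0.975 CPM with a guide (SD, n = 4) and 9.08 ± 1.69 CPM in the non-targeting group (SD, n = 3), at -0.48 (unadjusted p = 0.0218, adjusted p = 0.998, edgeR). AUP1 differed by 0.18 and RNF139 by -0.23, and by 0.08 and -0.05 without that library.

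Among 9 sensors, their proteases and related factors, 6 were above and 3 below 0, with a median of 0.11. That became 4 above 0 of 8 tested, with a median of -0.01, without non-targeting replicate 1. The 1 gene with an unadjusted p under 0.05 was MBTPS2, a protease that cuts ATF6, with a mean of 4.10 CPM and a difference of -0.63 (unadjusted p = 0.0188, edgeR), named after its value was seen. CREB3, a membrane-bound factor, averaged 41.6 ± 1.13 CPM with a guide (SD, n = 4) and 35.9 ± 4.69 CPM in the non-targeting group (SD, n = 3), at 0.21, and 0.11 without that library. ATF6 differed by 0.11, and by 0.18 without it, and CREB3L2 by -0.21.

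Of 12 genes in the arm of ATF4 and CHOP, 10 were above and 2 below 0, with a median of 0.14 and 2 higher at an unadjusted p under 0.05. There were also 10 above 0, with a median of 0.11, without non-targeting replicate 1. This arm had been seen to lie above 0 in earlier results of these data, so its count is not independent support. EIF2AK3, the gene of PERK, was named after its value was seen and had a mean of 0.736 CPM. Whether the values of this arm come from PERK or from ER stress was not tested. DDIT3, which encodes CHOP, averaged 74.1 ± 13.2 CPM with a guide (SD, n = 4) and 56.7 ± 10.1 CPM in the non-targeting group (SD, n = 3), at 0.37 (unadjusted p = 0.0123, adjusted p = 0.998, edgeR), and 0.23 without that library. DDIT3 stood at 0.57 with guide 1 and 0.18 with guide 2. Without that library it was called with guide 1, at 0.43 (adjusted p = 0.0187, edgeR), and stood at 0.04 with guide 2. CHAC1 differed by 0.25, and by 0.14 without it, and the asparagine synthetase gene ASNS by 0.175.

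The machinery by which proteins enter the ER had 23 tested genes, 10 above and 13 below 0, with a median of -0.08 and 2 lower at an unadjusted p under 0.05. Once non-targeting replicate 1 was left out, 13 were above 0 and the median was 0.04. TRAM1, a translocon partner, averaged 30.9 ± 6.48 CPM with a guide (SD, n = 4) and 37.9 ± 5.01 CPM in the non-targeting group (SD, n = 3), at -0.31, and -0.20 without that library. SRP9, of the signal recognition particle, averaged 32.4 ± 2.41 CPM with a guide (SD, n = 4) and 43.0 ± 24.0 CPM in the non-targeting group (SD, n = 3), whose libraries stood at 70.6, 27.2 and 31.2 CPM. Its difference was -0.41, and 0.15 without that library, while SRP68 differed by -0.27. N-glycosylation had 15 of 17 genes tested, 7 above and 8 below 0, with a median of -0.02 both with and without that library. MAGT1 differed by -0.32, MOGS by 0.24 and ALG2 by -0.15, and MAGT1 and MOGS by -0.02 and 0.10 without it. With all 7 libraries, none of the genes in these 6 lists was called in any of the 4 comparisons. DDIT3 with guide 1 was the only one called without non-targeting replicate 1.

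**Figure D5:**
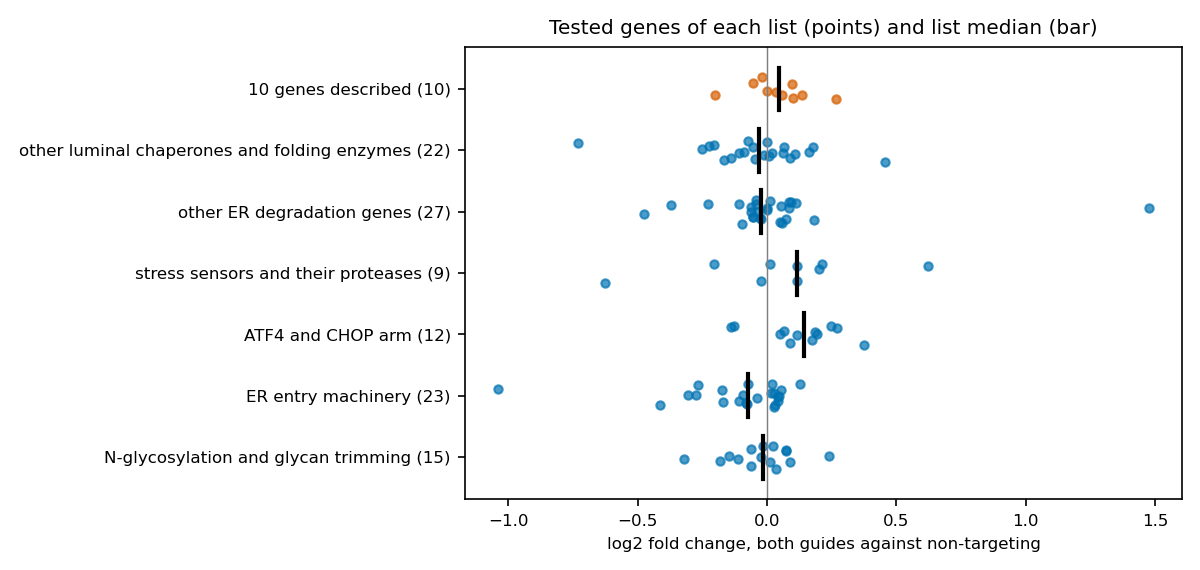
Log2 fold changes for both guides against non-targeting (horizontal axis) of the tested genes in each list, with the number tested in brackets; points are genes and bars are list medians. The median of the 10 genes is 0.05, and list medians run from -0.08 for ER entry, which is 0.04 without non-targeting replicate 1, to 0.14 for the ATF4 and CHOP arm, which is 0.11 without it.

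Over the 7 libraries, the genes whose profile lay closest to that of HSPA5 were sought among 4305 other tested genes with a mean of at least 20 CPM. Likeness was the root mean square difference of log2 CPM after centring each gene on its own mean. The closest 5 were XRRA1 (0.0591), CBS (0.0601), HTT (0.0624), RPAIN (0.0627) and SCD (0.0637). Over the 6 libraries without non-targeting replicate 1, SCD ranked at 2, XRRA1 at 7, RPAIN at 12, CBS at 13 and HTT at 18 of 4276 genes. SCD, a fatty acid desaturase of the ER membrane, averaged 228 ± 18.4 CPM with a guide (SD, n = 4) and 189 ± 6.48 CPM in the non-targeting group (SD, n = 3). XRRA1, CBS, HTT and RPAIN averaged 26.6, 178, 60.3 and 33.0 CPM with a guide and 22.1, 154, 49.6 and 28.1 CPM in the controls. All were picked for likeness to HSPA5 over these libraries, so their higher levels with the guides follow from the choice.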

How the data were processed

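The authors deposited raw counts of reads per gene symbol for 7 Smart-seq2 libraries in a single table, per the file header. STAR and GRCh37 (hg19) are named in the submitters' processing notes, with no version. What counted the reads, on which annotation and with which strand setting, is not stated in those notes or the labels. Smart-seq2 marks no strand and has no molecular identifiers, so antisense reads cannot be separated and PCR copies count as reads.

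The test was that of edgeR 4.0.16 (R 4.3.3): filterByExpr (minimum count 10), TMM, and a quasi-likelihood fit with the 3 groups as its only term, 4 residual degrees of freedom and a biological coefficient of variation of 12.5%. P-values were adjusted over 10212 genes, and a gene was called at an adjusted p under 0.05. Other scalings, no filter, a replicate block and leaving out each library were further alternatives. Library totals of 9780800 to 11350113 set the counting error. Log2 CPM values used a prior count of 2. Transcript length and GC content are medians over principal transcripts in GENCODE v29, matched for 92.3% of tested genes. The GC correction removed a lowess trend (span 0.3) per library. DESeq2 1.42.0 was an alternative. The fits were tested on simulated data.

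The 10 genes, the lists and the tests were chosen with earlier results of these data known. Of the marker symbols listed, 2 had no row. The rule named all 10 genes, TMCC2, 3 genes per related list by unadjusted p, and the 5 genes closest to HSPA5.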

Additional observations from a re-analysis of the deposited data

How the results depend on the processing

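Each difference of a single gene was recomputed under 14 alternatives. Of these values, 517 kept their sign and their side of the threshold, 4 became called and 39 changed sign; all 39 were differences that were not called. The 4 that became called are HSPA5 and SEL1L, given above. The counts of all genes called, main value 2 with both guides, 3 with guide 1, 1 with guide 2 and 0 between guides, were 4, 7, 3 and 2 by DESeq2, 8, 19, 4 and 2 without a filter on low counts, and 10, 33, 5 and 2 with GC correction. Leaving out 1 library gave 1 to 53, 1 to 59, 1 to 128 and 0 to 32, with the highest value in each case without non-targeting replicate 1. Of the 10 genes, 0 were called in the main result, 1 with GC correction for guide 1, and 0 to 1 without 1 library for both guides, guide 1 and guide 2. The median change of the 10 genes was -0.0023 to 0.0647 without 1 library for both guides, -0.0274 to 0.0359 for guide 1 and 0.0296 to 0.101 for guide 2. For guide 1 it was 0.0778 with GC correction and 0.0964 with GC correction and a replicate block. Between guides it was 0.0952 with total counts, -0.0101 with GC correction and -0.0097 with that and the block. Genes whose groups did not overlap, an alternative chosen after seeing the data, numbered 1 with total counts for both guides and 1 for guide 2. Of all tested genes, 3.79% were then higher and 1.65% lower for both guides, and 11% and 4.78% for guide 2. Without 1 non-targeting library they numbered 4 to 5 for guide 1, against 17.6% to 19.4% of tested genes higher and 16.8% to 18.8% lower. For guide 2 they numbered 2 to 8, against 12.1% to 22.1% higher and 11.4% to 21.5% lower.

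Replicate numbers were shared by the groups, and the correlation of deviations between libraries of the same number ran from -0.19 to 0.03. With 2 libraries a guide, the deviations from the group mean mirror each other. These correlations therefore cannot show whether the numbers pair the libraries. With a replicate block the counts of all genes called were 1, 2, 1 and 1, and none of the 10 genes was called. With GC correction and a replicate block these counts were 5, 11, 2 and 1.

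Signs changed as follows. With total counts, XBP1 was 0.0002 for both guides, PDIA4 0.0064 with guide 2 and HERPUD1 0.0171 between guides. Without a filter XBP1 was 0.0029 for both guides. With the replicate block PDIA4 was 0.0097, CALR 0.0252 and CANX -0.0542 with guide 2. With GC correction CANX was 0.0435 for both guides and 0.0364 with guide 1, and SEL1L 0.13 with guide 1. With GC correction and the block, HSP90B1 was 0.033 and CANX 0.0024 for both guides, HSP90B1 0.0057 and SEL1L 0.12 with guide 1, and CALR 0.0051 with guide 2. Without 1 library, the range for both guides was -0.0828 to 0.106 for CALR, -0.111 to 0.0946 for CANX, -0.321 to 0.0474 for DNAJB9, -0.108 to 0.0051 for HSP90B1, -0.0878 to 0.157 for PDIA4 and -0.0608 to 0.0492 for XBP1. With guide 1 it was -0.164 to 0.0403 for CANX, -0.063 to 0.347 for PDIA4 and -0.13 to 0.16 for SEL1L. With guide 2 it was -0.168 to 0.019 for CALR, -0.0578 to 0.149 for CANX, -0.213 to 0.157 for DNAJB9, -0.0727 to 0.0927 for HSP90B1 and -0.20 to 0.10 for PDIA4. Between guides it was -0.386 to 0.0229 for PDIA4. Of the list genes named, DNAJC3 (0.0302) and SRP9 (0.1525) changed sign for both guides without non-targeting replicate 1, an alternative chosen after seeing the data. The cause of these changes was not tested. Where a fit left a guide with 1 library, that library was assumed to vary like the other groups.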

Other observations

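The 2 promoter elements searched were found before 43 genes in all, of which 24 were tested here and 17 of those are not among the 10 genes described. These 17 included CRELD2, PDIA6, SDF2L1, SERP1 and FICD, which encode further proteins of the ER. With both guides against non-targeting, 7 of the 17 were above and 10 below 0, with a median of -0.01, against -0.01 over all tested genes. None had an unadjusted p under 0.05 by edgeR, against 4.19% of tested genes, and none was called. Leaving out non-targeting replicate 1, 5 were above and 12 below 0, with a median of -0.05 and 1 with an unadjusted p under 0.05, against 10.5% of tested genes. With all 7 libraries CRELD2 was at 0.46, PDIA6 at -0.05, SDF2L1 at -0.11, SERP1 at -0.11 and FICD at -0.18. Without that library they were at 0.49, -0.09, -0.26, -0.007 and -0.30 in the same order. CRELD2 had a mean of 1.65 CPM (unadjusted p = 0.184 with all 7 libraries, edgeR).

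DERL3, which takes part in the export of misfolded glycoproteins from the ER, had a mean of 0.649 CPM and differed by 1.48 on the log2 scale with both guides (unadjusted p = 0.0102 by edgeR). It did not pass the filter on low counts when non-targeting replicate 1 was left out. Both it and SRP19, at 3.57 CPM and -1.04 (-0.52 without non-targeting replicate 1), were named after their values were seen, as the ends of the range in their lists.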
